A study of Mus musculus with 2 samples.

Results

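Cycling T cells were taken from single-cell libraries of mouse tumours as barcodes that carried transcripts of both the T cell receptor machinery and the mitotic machinery. Barcodes were kept if they had 200 or more genes and no more than 20% of UMIs from mitochondrial genes, where a UMI is the molecular tag that counts 1 captured transcript. It was called a T cell when its T score, the UMIs of Cd3d, Cd3e, Cd3g, Trac, Trbc1, Trbc2, Bcl11b and Themis together, was at least 2 and at least 0.1% of its UMIs. It was called cycling when Mki67, Top2a, Birc5 and Cenpf together had at least 3 UMIs, and it was left out with 5 or more UMIs of the macrophage genes C1qa, C1qb and C1qc. The members were thus chosen by these measured values, which picked 195 cells of 17746 kept cells and of 18964 barcodes in all. The other 2200 T cells that met every term but the cycling one are called other T cells below.

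The study compared tumours of the mouse mammary carcinoma line 4T1, grown under the skin and taken on day 7 after phototherapy. The treated library was made after phototherapy using AIE COF, where COF stands for covalent organic framework, and the PBS library after PBS, a saline buffer. Both groups carried 4T1 tumours, and the labels spell the strain C57BL/c, which is not resolved here. Age, sex, genotype, dose, light exposure and the number of animals or tumours behind each suspension are not stated in the sources at hand, so each group is 1 library with no replicate. No difference below therefore has a test or a p-value, and all intervals are exact 95% intervals for counting error only.

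A T cell that meets its antigen leaves quiescence, copies its DNA, condenses and separates its chromosomes and divides, and its daughters become killer, helper or regulatory cells. CD8 T cells kill target cells with perforin and granzymes. Helper T cells carry CD4 and direct other immune cells, and regulatory T cells, most of which carry CD4 and the transcription factor Foxp3, restrain immune responses. In tumours, dividing CD8 and regulatory T cells are known to lie side by side, so the make-up of the dividing pool was examined first and its genes after that.

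The treated library gave 96 cycling T cells and the PBS library 99. Kept cells had a median of 4074 treated and 6756 PBS UMIs, and cycling T cells 4615 and 6292, against 1645 and 2293 in other T cells. Since 3 UMIs of 4 genes are reached more easily in a deep cell, the rule itself draws deeper cells. The libraries shared 39 deposited barcodes and 32 kept ones, of which 7 were a T cell and 1 a cycling T cell in 1 of the libraries and none in both. A doublet caller marked 18 of 96 treated and 9 of 99 PBS cycling T cells, which were kept in the values below and left out in an alternative. By comparison, it marked 694 of 9313 treated and 569 of 8433 PBS kept cells, and 71 of 1533 and 29 of 667 other T cells. The treated members thus held a larger marked share than the kept cells of their library.

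Most members lay away from the limits of the rule. Exactly 3 cycling UMIs were seen in 14 treated and 13 PBS members, and 37 and 38 T cells just outside had 2. A T score of 2 was held by 5 and 3 members, while 0 and 2 cells that met the other terms had a T score of 1. The share limit mattered more, since 167 treated and 128 PBS cells met every other term with T genes under 0.1% of their UMIs. The C1q limit left out 4 and 3 cells.

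The T cell label held for most members and weakly for some. Ptprc, which encodes CD45 of all white blood cells and was no part of the rule, had a UMI in 92 of 96 treated and 91 of 99 PBS members. Cd3g, a subunit of the T cell receptor complex on chromosome 9 (44969572 to 44980431, minus strand, GRCm38), stood at 687 and 855 UMIs per 1000000 UMIs summed over the group's cells (CPM) in cycling T cells, 776 and 1189 CPM in other T cells, and 2.63 and 1.94 CPM in cells that are not T cells. A T score of at least 12 was reached by 64 treated (66.7%) and 82 PBS members (82.8%). None of the receptor constant genes Trac, Trbc1 and Trbc2 was seen in 4 and 1 members, and no Cd3 gene in 8 and 3. Among 2031 treated and 3170 PBS tumour-marker cells, which had at least 3 UMIs of Hmga2 and Rhox5 and none of Ptprc, 2 and 3 met the T cell terms. These cells had median depths of 24385 and 28923.5 UMIs, at which the share term asks for far more than 2 T gene UMIs. The low count therefore does not bear on stray T cell transcripts in shallow members.

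Transcripts of other cell types lay in many members. At least 2 UMIs of tumour, macrophage, B cell or fibroblast markers were seen in 65 treated and 72 PBS members. Tumour markers reached that number in 18 and 26 members, macrophage markers in 19 and 20, B cell markers in 21 and 18, fibroblast markers in 24 and 28, and natural killer (NK) markers in 22 and 39. The keratins Krt8, Krt18 and Krt14, the neutrophil genes S100a8 and S100a9 and the gamma delta receptor gene Trdc were at 0 in both libraries. Summed macrophage markers stood at 161 treated and 128 PBS CPM in cycling T cells, 244 and 183 CPM in other T cells, and 1967 and 1318 CPM in cells that are not T cells. The part of these transcripts in the differences below was not tested, beyond the alternatives without such cells.

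Cycling T cells were about 1% of the kept cells of each library. They were 1.03% of treated kept cells (0.836 to 1.26%) and 1.17% of PBS kept cells (0.955 to 1.43%), a ratio of 0.878 (0.656 to 1.17). Counting only members with a T score of at least 12, the log2 ratio was -0.50 (-0.996 to -0.01), against -0.19. Other T cells were 16.5% of treated and 7.91% of PBS kept cells, a ratio of 2.08 (1.90 to 2.28). The cycling share of T cells was therefore 5.89% (96 of 1629) in the treated and 12.9% (99 of 766) in the PBS library, a ratio of 0.456 (0.341 to 0.610).

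Depth moved with that last ratio. When every cell was thinned to 2000 UMIs and the rule applied again, cycling T cells were 10.6% of treated and 12.9% of PBS T cells, a ratio of 0.827 (0.572 to 1.19). That thinning dropped 64.3% of treated and 35.4% of PBS T cells as too shallow. Thinned to 1000 UMIs, which dropped 12.2% and 6.27%, the shares were 2.77% and 6.84%, a ratio of 0.405 (0.255 to 0.640).

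The cycling pool of the PBS tumours was mostly CD8, and that of the treated tumours was more mixed. A member was called CD8 with at least 1 UMI of Cd8a or Cd8b1 and none of Cd4 or Foxp3. Without Cd8 UMIs it was called regulatory with a Foxp3 UMI or at least 3 UMIs of Foxp3, Ikzf2, Il2ra, Ctla4, Tnfrsf4 and Ccr8, and helper with a Cd4 UMI alone. CD8 cells were 40 of 96 treated members (41.7%, 31.7 to 52.2%) and 66 of 99 PBS members (66.7%, 56.5 to 75.8%), a ratio of 0.625 (0.411 to 0.940). Regulatory cells were 26 treated (27.1%) and 19 PBS members (19.2%), a ratio of 1.41 (0.751 to 2.70), an interval that includes 1. Thinned to 2000 UMIs, they were 32.8% and 12.7%, a ratio of 2.58 (1.09 to 6.78), so this result depends on depth. Helper cells numbered 5 and 2, of which the doublet caller marked 3 and 1, and their median T scores were 7 and 36.5. Mixed was 1 treated member, with both CD8 and CD4 or Foxp3 transcripts. Another 24 treated (25%) and 12 PBS members (12.1%) could not be placed, a ratio of 2.06 (0.992 to 4.53).

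The members that could not be placed were shallow and thinly supported as T cells. Their median depth was 2385.5 treated and 2201 PBS UMIs, against 6696.5 and 6855 in CD8 members, and their median T score was 5.5 and 4. Ptprc had a UMI in 20 of 24 treated and 6 of 12 PBS of them. With a T score of at least 12, an alternative chosen after the data were seen, CD8 cells were 37 of 64 treated (57.8%) and 61 of 82 PBS members (74.4%), a ratio of 0.777 (0.502 to 1.19), and 5 and 1 could not be placed. Below that score 19 of 32 and 11 of 17 could not be placed. The lower CD8 share of the treated pool thus kept its direction, and its counting interval then included 1.

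Class transcripts were also found in tumour-marker cells, at low shares for Cd8 and higher ones for single regulatory genes. Cd8a or Cd8b1 had a UMI in 3.45% of treated tumour-marker cells and 3.15% of PBS ones, at median depths of 24385 and 28923.5 UMIs, and the regulatory threshold was met by 4.92% and 3.69% of them. Ikzf2 had a UMI in 21.8% and 17.7% of them and Ctla4 in 7.73% and 3.44%, against 56.3% and 58.6%, and 50% and 46.5%, of members. The regulatory threshold was also reached within CD8 members, with up to 24 UMIs of the 6 genes in a treated and 26 in a PBS cell. At least 2 UMIs of these genes were seen in 57 treated and 63 PBS members of any class. A CD8 cell without a captured Cd8 UMI could thus be called regulatory. The same holds for a helper cell with 3 UMIs of the 6 genes and no Foxp3 UMI. How many such cells the regulatory class holds was not tested. Foxp3 had a UMI in 4 of 26 treated and 5 of 19 PBS regulatory members. Cd4 had a UMI in 8 and 10 of them. Another gene, Ccdc22, lies over the last 500 bases of Foxp3 on the opposite strand, where 3' reads fall, so Foxp3 counts are uncertain. Gm29114 lies over the end of Ikzf2 in the same way, so Ikzf2 counts are uncertain too.

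**Figure D1:**
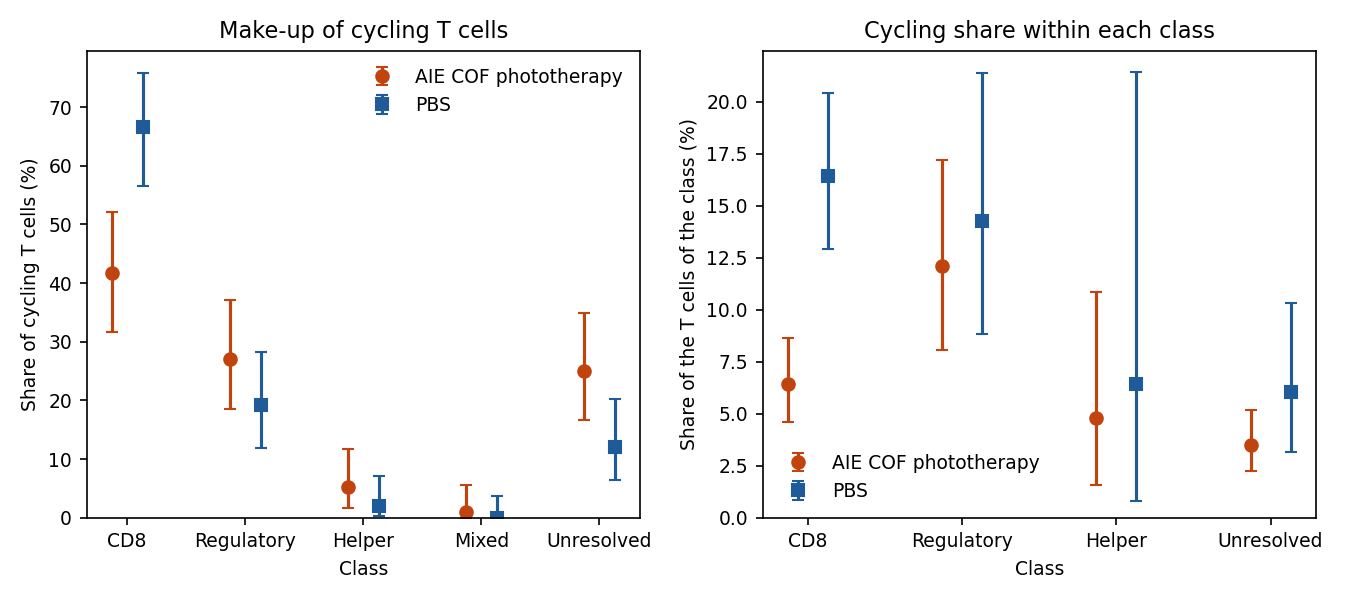
Left, share of cycling T cells in each class (%), and right, share of each class's T cells that were cycling (%), for the AIE COF phototherapy library (circles) and the PBS library (squares), with exact 95% counting intervals as bars. CD8 cells were 41.7% of treated and 66.7% of PBS cycling T cells, and 6.41% of treated against 16.4% of PBS CD8 T cells were cycling.

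The cycling share was lower in treated than in PBS CD8 T cells, and its interval included no difference in regulatory cells. Of CD8 T cells, 40 of 624 treated (6.41%, 4.62 to 8.63%) and 66 of 402 PBS cells (16.4%, 12.9 to 20.4%) were cycling, a ratio of 0.390 (0.257 to 0.587). Of regulatory cells, 26 of 215 treated (12.1%) and 19 of 133 PBS cells (14.3%) were, a ratio of 0.847 (0.451 to 1.62). Whether the ratios of these classes differ was not tested. Of helper cells 5 of 104 and 2 of 31 were cycling, and of cells that could not be placed 24 of 683 and 12 of 198. Thinned to 2000 UMIs, 8.49% of treated and 13.3% of PBS CD8 cells were cycling (ratio 0.639, 0.365 to 1.09), and 22.5% and 11.1% of regulatory cells (ratio 2.02, 0.853 to 5.31). Thinned to 1000 UMIs, 2.03% and 8.75% of CD8 cells were cycling (ratio 0.231, 0.0905 to 0.526).

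The make-up of CD8 T cells differed between the libraries at the same time. Gzmb, the gene of granzyme B, a protease that triggers death of target cells, had a UMI in 10.9% of 624 treated and 43.3% of 402 PBS CD8 T cells. Among CD8 cells with a Gzmb UMI, 13 of 68 treated (19.1%) and 45 of 174 PBS cells (25.9%) were cycling, a ratio of 0.739 (0.366 to 1.39). Among those without one, 27 of 556 (4.86%) and 21 of 228 (9.21%) were, a ratio of 0.527 (0.287 to 0.981). In both libraries the cycling share was higher among cells with a Gzmb UMI. Thinned to 2000 UMIs, 5 of 40 treated (12.5%) and 23 of 134 PBS (17.2%) CD8 cells with Gzmb were cycling, against 8.49% and 13.3% of all CD8 cells.

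Within each library, cycling T cells carried the transcripts of DNA copying and chromosome separation at several times the level of other T cells. The rule chose the cells on this contrast, so these values describe the members and test nothing. Of all genes with at least 50 UMIs, 23.1% were at least 1.5-fold higher and 19.9% at least 1.5-fold lower in cycling than in other T cells of the treated library, and 16.8% and 14.6% in the PBS library. The median log2 ratios over these genes were 0.061 and 0.010.

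The 4 cycling genes of the rule were each seen in 49.0% or more of the members of each library. Mki67, which coats mitotic chromosomes, lies on chromosome 7 (135689784 to 135716361, minus strand, GRCm38) and stood at 524 treated and 630.1 PBS CPM, against 19.01 and 25.4 CPM in other T cells. Top2a, the topoisomerase that untangles replicated DNA, on chromosome 11 (98992943 to 99024189, minus strand), stood at 1066 and 1070.3 CPM against 58.1 and 65.1. Birc5, or survivin, guides chromosome attachment and lies on chromosome 11 (117849251 to 117855743, plus strand), at 552 and 565 CPM against 20.7 and 17.7. Cenpf, a protein of the outer kinetochore on chromosome 1 (189640606 to 189688086, minus strand), stood at 292 and 422 CPM against 10.03 and 16.0. Mki67 had a UMI in 70.8% of treated members and 83.8% of PBS members, of Top2a in 93.8% and 85.9%, of Birc5 in 69.8% and 79.8%, and of Cenpf in 49.0% and 69.7%.

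Genes of replication and of mitosis outside the rule were higher as well. All 26 measured genes of G2 and mitosis in the treated and all 28 in the PBS library were at least 1.5-fold higher in cycling T cells, with median log2 ratios of 3.89 and 3.57. Ccnb2, a cyclin that activates the mitotic kinase, stood at 466 against 18.3 CPM in the treated and at 526 against 24.8 CPM in the PBS library. Knl1, the kinetochore scaffold, had log2 ratios of 4.77 and 5.19, and Smc4, a condensin subunit, 0.87 and 1.43. Among DNA replication and G1/S genes 21 of 21 and 22 of 24 were higher, with medians of 2.15 and 2.02. Rrm2, the ribonucleotide reductase subunit that supplies deoxynucleotides, stood at 324 against 31.1 and 432 against 40.3 CPM, and the sliding clamp Pcna at 959 against 379 and 908 against 321 CPM. Replication-dependent histones were higher in 8 of 8 and 9 of 9 cases, with medians of 3.03 and 2.41, led by the linker histone Hist1h1b (5.66 and 5.08). Histone genes are near-identical copies of each other and their messages mostly lack the poly(A) tail that 3' kits capture, so single histone values are uncertain.

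**Figure D2:**
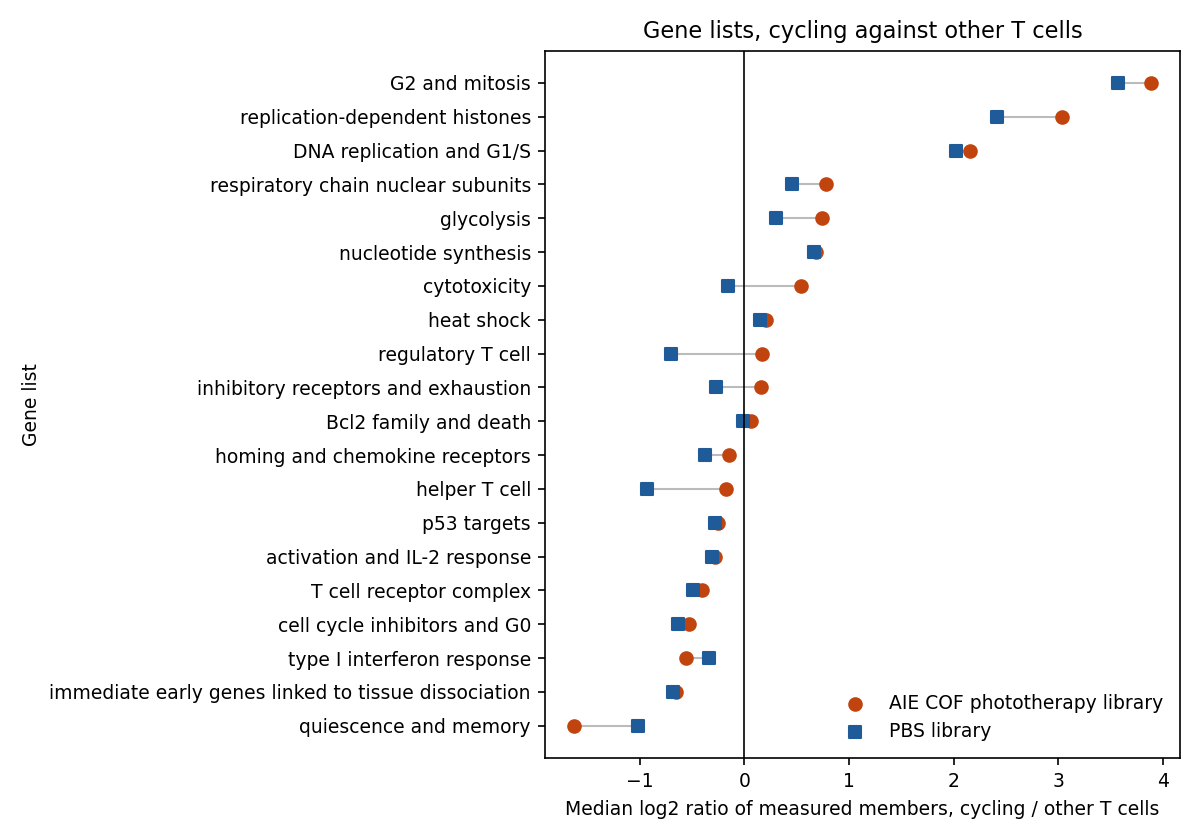
Median log2 ratio of the measured members of each gene list in cycling against other T cells, within the AIE COF phototherapy library (circles) and the PBS library (squares). G2 and mitosis genes have the highest medians (3.89 and 3.57) and quiescence and memory genes the lowest (-1.63 and -1.02).

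The promoters of the mitotic and the replication genes hold different letters. Many mitotic genes are known to hold a cell cycle homology region (CHR), the DNA site of the MuvB complexes, close to their start, and many replication genes hold sites of the E2F factors. RefSeq promoter windows on GRCm38.p6, running from 250 bases before to 50 bases after a gene's start, were searched on both strands. The CHR letters were TTTGAA and TTTAAA, and the E2F letters TTTCCCGC, TTTGGCGC and TTTGGCGG. No CHR string lies within an E2F string, and the last 2 E2F strings differ only in their last letter. For G2 and mitosis genes 34 of 40 matched a window, and CHR letters were in 31 of 37 windows (83.8%). They were in 7 of 29 windows (24.1%) of 24 matched replication genes and in 9062 of 32851 windows of all promoters (27.6%). E2F letters were in 10 of 29 replication windows (34.5%), 1 of 37 mitotic windows (2.70%) and 690 of all windows (2.10%). All 4 cycling genes of the rule had CHR letters and none had E2F letters. A match is a run of letters and not a shown binding site.

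The following upstream stretches hold the CHR letters nearest to the start of 6 mitotic genes, where the match begins 15 to 98 bases upstream. Those of Cenpf and Ccnb2, not shown, begin farther away, at 154 and 167 bases upstream. Capitals mark the match, on the gene's own strand, as TTTGAA or TTTAAA or as TTCAAA, which is TTTGAA read from the other strand. Mki67, Top2a, Cdk1 and Plk1 have 2 matches upstream, of which only the nearer to the start is in capitals. The other one of Mki67 is in its stretch in small letters. The positions are those of the stretch on GRCm38.p6. Mki67 lies at chr7:135716448-135716507 (minus strand), Top2a at chr11:99024190-99024242 (minus), Cdk1 at chr10:69352913-69352957 (minus), Plk1 at chr7:122159376-122159434 (plus), Cdc20 at chr4:118437344-118437391 (minus) and Ube2c at chr2:164769870-164769928 (plus).
Mki67: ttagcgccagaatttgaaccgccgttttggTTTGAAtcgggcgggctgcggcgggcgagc
Top2a: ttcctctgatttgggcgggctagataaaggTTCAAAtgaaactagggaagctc
Cdk1: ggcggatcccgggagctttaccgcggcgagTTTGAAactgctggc
Plk1: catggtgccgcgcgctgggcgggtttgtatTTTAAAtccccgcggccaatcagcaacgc
Cdc20: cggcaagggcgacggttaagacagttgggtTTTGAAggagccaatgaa
Ube2c: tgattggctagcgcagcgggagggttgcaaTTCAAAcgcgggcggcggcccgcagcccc

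The E2F letters of 3 replication genes are shown for contrast. Among replication genes with such letters upstream, they had the most UMIs in cycling T cells. The DNA polymerase subunit Pola1 lies at chrX:93632264-93632323 (minus strand), the helicase subunit Mcm6 at chr1:128359723-128359782 (minus) and the checkpoint adaptor Clspn at chr4:126556829-126556888 (plus). Capitals mark the match, where GCGCCAAA and CCGCCAAA are TTTGGCGC and TTTGGCGG read from the other strand. Mcm6 has 2 such matches upstream, of which the nearer to the start is shown.
Pola1: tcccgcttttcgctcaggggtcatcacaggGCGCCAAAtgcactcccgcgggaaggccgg
Mcm6: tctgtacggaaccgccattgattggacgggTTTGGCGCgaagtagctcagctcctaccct
Clspn: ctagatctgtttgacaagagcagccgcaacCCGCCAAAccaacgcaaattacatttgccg

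Genes of quiescence and memory were lower in cycling than in other T cells of both libraries. Of 20 measured, 18 were at least 1.5-fold lower in the treated library and 14 in the PBS library, with medians of -1.63 and -1.02. Satb1, a chromatin organiser of T cells, stood at 288 against 1539 CPM in the treated library and at 204 against 659 CPM in the PBS library. Lef1, a transcription factor of naive T cells, stood at 159 against 851 and 129 against 379 CPM. Klf2, which keeps T cells resting and circulating, stood at 285 against 1001 and 198 against 549 CPM. The library difference in these genes lay mostly in the other T cells, whose Satb1 level was 1539 treated and 659 PBS CPM, while cycling T cells stood at 288 and 204 CPM.

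Metabolic genes were higher in cycling T cells, with larger log2 ratios in the treated library. Nuclear subunits of the respiratory chain had medians of 0.78 (20 of 29 at least 1.5-fold higher) in the treated and 0.45 (7 of 29) in the PBS library. Glycolysis genes had medians of 0.74 (9 of 16 higher) and 0.30 (5 of 15), with the phosphoglycerate kinase Pgk1 at 352 against 124 CPM in the treated and 403 against 236 CPM in the PBS library. Nucleotide synthesis genes had medians of 0.68 and 0.66, led by the thymidine kinase Tk1 (3.18 and 2.81). Lower in cycling cells were immediate early genes linked to tissue dissociation (-0.66 and -0.69, 8 of 13 lower in each library) and subunits of the T cell receptor complex (-0.40 and -0.49, with 7 and 10 of 24 lower).

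Cell cycle inhibitors split by gene, with 2 of 14 higher and 7 lower in the treated library and 4 of 14 higher and 8 lower in the PBS library. Cdkn2c, an inhibitor of the G1 kinases Cdk4 and Cdk6, was higher in cycling T cells, with log2 ratios of 2.60 and 2.23. Tob1, an antiproliferative factor, was lower, at -1.28 and -0.77. Cdkn1a, or p21, which p53 induces after DNA damage, stood at 54.3 against 41.5 CPM in the treated library (log2 ratio 0.39) and at 153 against 50.8 CPM in the PBS library (1.59). Its treated interval (-0.25 to 0.98) included 0.

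Mitotic transcripts were lower in treated than in PBS CD8 members and higher in treated than in PBS regulatory members. Over all members, genes of G2 and mitosis took 62.4 treated and 67.3 PBS UMIs of every 10000, and replication genes 35.8 and 39.8. In CD8 members the mitotic sum was 55.6 treated and 73.2 PBS, with medians per cell of 54.9 (quartiles 20.001 and 85.1) and 65.6 (27.0 and 104.8). In regulatory members it was 96.5 treated and 57.1 PBS, with medians of 107 (57.8 and 121.6) and 68.6 (27.7 and 79.2). The ranges between the quartiles overlapped in both classes, and whether the classes differ was not tested. Regulatory members had median depths of 4333.5 treated and 9643 PBS UMIs, and CD8 members of 6696.5 and 6855. The rule asked for 3 cycling UMIs at any depth, so a shallower cell needed a larger share of them to be a member. The part of depth in these values was not tested. Members that could not be placed were low in replication transcripts, at medians of 14.6 and 24.3 UMIs of every 10000, against 35.5 and 40.7 in CD8 members.

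**Figure D3:**
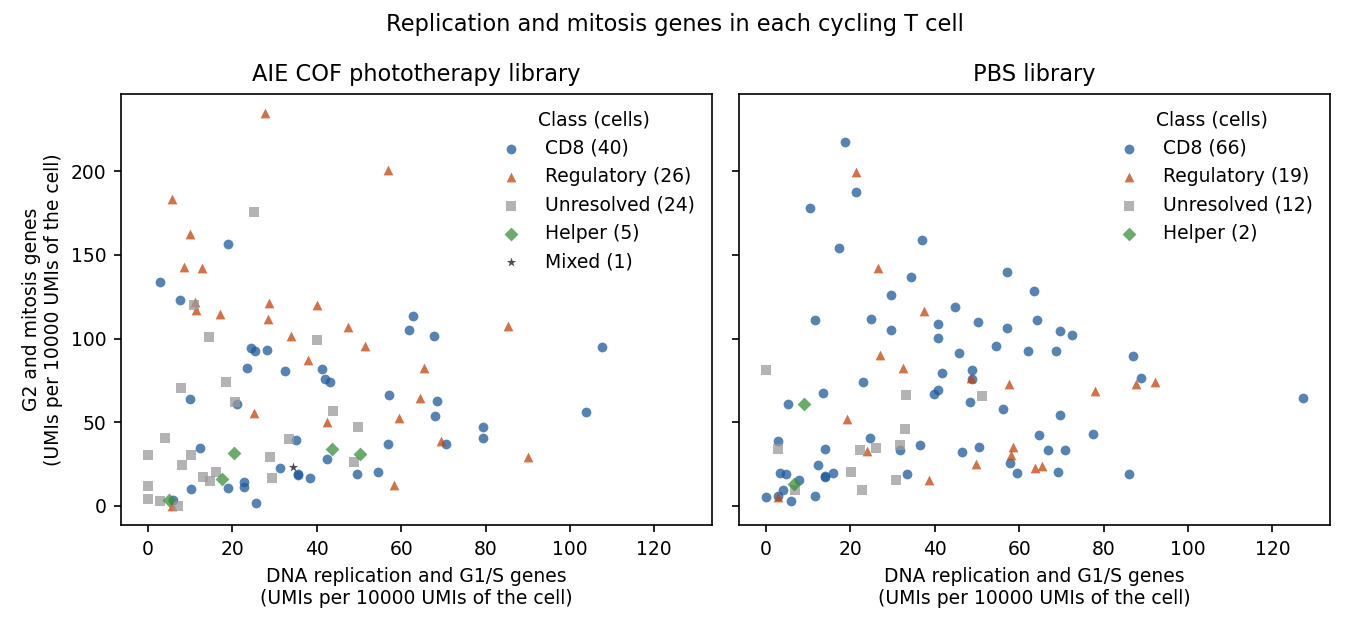
Each point is 1 cycling T cell, with UMIs of DNA replication and G1/S genes on the x axis and of G2 and mitosis genes on the y axis, both per 10000 UMIs of the cell, marked by class, in the AIE COF phototherapy library (left) and the PBS library (right). Regulatory cells of the treated library had a mitotic median of 107, against 68.6 in the PBS library, and CD8 cells 54.9 against 65.6.

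Cycling regulatory and CD8 members also differed in genes outside the class rule. Of all genes with at least 50 UMIs over both libraries, 12.7% were at least 1.5-fold higher and 12.3% at least 1.5-fold lower in regulatory members, with a median log2 ratio of 0.046. Ikzf2, Il2ra, Ctla4, Tnfrsf4, Cd8a and Cd8b1 defined the classes and are no finding. Of 15 measured cytotoxicity genes 13 were lower in regulatory members, with a median of -2.32. Klrd1, a subunit of the NKG2 receptors, stood at 899 treated and 1003 PBS CPM in CD8 members and at 53.4 and 108 CPM in regulatory members. Nkg7, a membrane protein of cytotoxic granules, stood at 1519 and 1697 CPM in CD8 and at 114 and 494 CPM in regulatory members. Gzmb was lower by 0.89 on the log2 scale in regulatory members over both libraries. It stood at 456 treated and 976 PBS CPM in CD8 members, and at 656 and 247 CPM in regulatory members. Single cells carried much of Gzmb: without the cell with the most UMIs, the treated CD8 level was 258 CPM, the treated regulatory level 451 CPM and the PBS regulatory level 90.3 CPM.

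Several genes outside the class rule were higher in regulatory members. Areg, a growth factor of the epidermal growth factor family, had a log2 ratio of 4.23, with 183 treated and 175 PBS CPM in regulatory and 16.8 and 5.52 CPM in CD8 members. S1pr1, the receptor that lets T cells leave lymph nodes, had 3.50. Maf, a transcription factor of helper and regulatory cells, stood at 587 and 175 CPM in regulatory members, and at 0 and 14.7 CPM in CD8 members, where 1 PBS cell held 87.5% of the UMIs. Of 7 measured helper T cell genes 5 were higher, among them the costimulatory receptor Icos (2.08) and Rora (1.91). The inhibitory receptor Pdcd1, or PD-1, was lower (-2.90), at 0 treated and 36.1 PBS CPM in regulatory and 77.1 and 191 CPM in CD8 members.

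**Figure D4:**
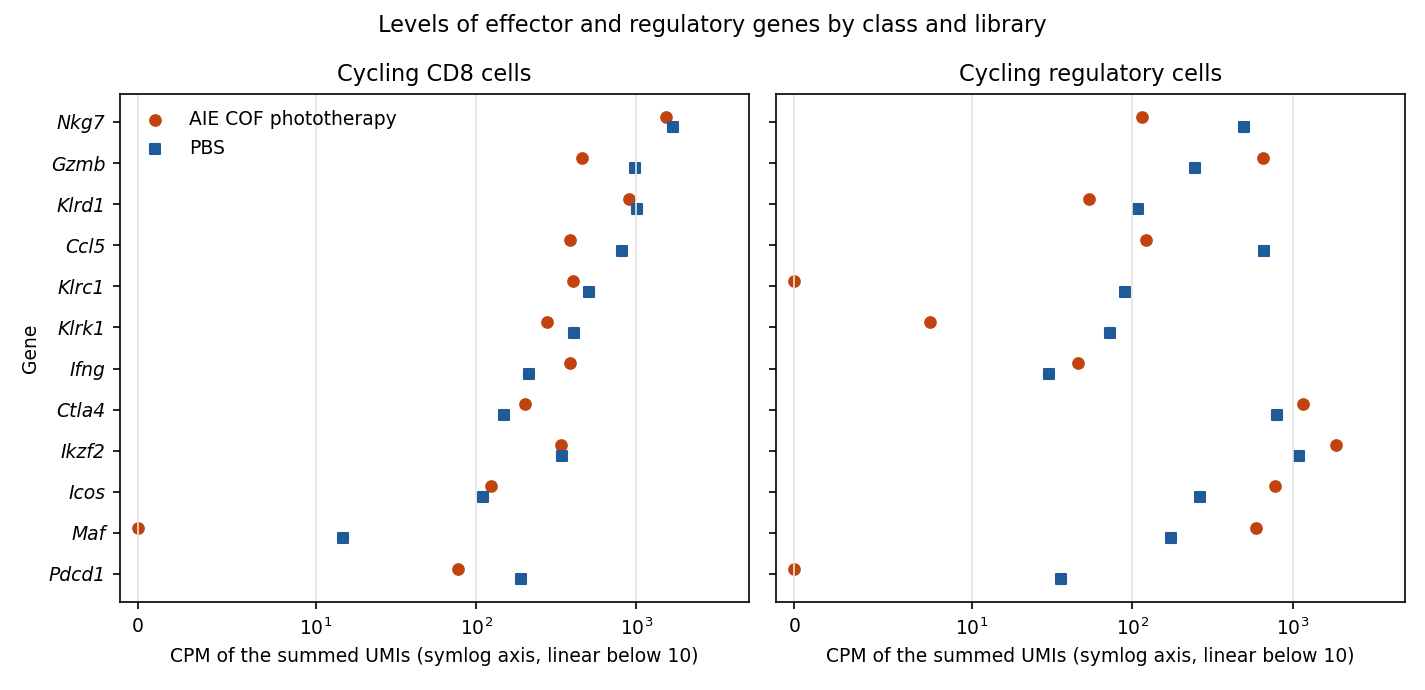
Level in CPM of the summed UMIs (axis linear below 10 and logarithmic above) of 12 genes in cycling CD8 cells (left) and cycling regulatory cells (right), for the AIE COF phototherapy library (circles) and the PBS library (squares). Gzmb stood at 456 treated and 976 PBS CPM in CD8 cells and at 656 and 247 CPM in regulatory cells.

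Between the libraries, cycling T cells of the treated tumours had lower levels of 7 of 17 cytotoxicity genes and higher levels of 4 of 8 helper T cell genes. Of 4031 genes with at least 50 UMIs, 7.47% were at least 1.5-fold higher and 8.46% at least 1.5-fold lower in the treated library, with a median log2 ratio of -0.018. No cytotoxicity gene was higher (median -0.52) and no helper T cell gene lower (median 0.73) by 1.5-fold. The lower share of CD8 members and the higher share of regulatory members move with both lists, and within CD8 members 1 of 5 measured helper genes was higher (median 0.28).

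Among the cytotoxicity genes the lowest ratio was that of Gzmc, a granzyme, with 7 treated and 71 PBS UMIs (13.1 and 93.6 CPM, log2 ratio -2.84, -4.20 to -1.72). Perforin, Prf1, which opens pores in target membranes, stood at 24.3 and 52.7 CPM (-1.11, -2.14 to -0.18). The activating receptor Klrk1, or NKG2D, stood at 191 and 316 CPM (-0.73, -1.08 to -0.39), and the granzyme inhibitor Serpinb9 at 105 and 175 CPM (-0.74). Gzmb stood at 521 and 776 CPM (-0.58, -0.79 to -0.37), Nkg7 at 957 and 1364 CPM (-0.51) and the chemokine Ccl5 at 470.1 and 733 CPM (-0.64). Ifng, the interferon that activates macrophages, went the other way, at 234 and 170.0 CPM (0.46, 0.09 to 0.83). Without the PBS cell with the most UMIs of the gene, Ccl5 was at -0.32 and Serpinb9 at -0.53. The lower level of Ctsw (-0.67) is less sure, since Fibp lies over its last 500 bases on the opposite strand.

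Shares of cells at equal depth gave the same order for several of these genes. With every cell thinned to 2000 UMIs, 83 treated and 93 PBS members remained and 13 and 6 were dropped. Gzmb then had a UMI in 25.3% of treated and 44.1% of PBS members (unthinned 29.2% and 53.5%, and 1.43% and 1.70% of tumour-marker cells). Klre1, an NK receptor gene, had one in 13.3% and 30.1% (unthinned 20.8% and 44.4%, tumour-marker cells 0.394% and 0.662%). Pdcd1 had one in 7.23% and 19.4% (unthinned 18.8% and 39.4%, tumour-marker cells 0.443% and 1.01%). Icos had one in 36.1% and 19.4% (unthinned 49.0% and 41.4%, tumour-marker cells 2.07% and 1.42%). Ifng, at 20.5% and 24.7%, went against its CPM, so no order is read from its share. Perforin was seen in 6.02% and 7.53%, and its ratio interval included 1, as did those of Gzmk, Lag3, Ctla4, Ly6c2 and Plac8. The intervals of Gzmb (0.322 to 0.994), Pdcd1 (0.121 to 0.982) and Icos (1.01 to 3.56) came close to 1. Thinned to 1000 UMIs, those of Pdcd1 (0.110 to 1.17) and Icos (0.744 to 3.44) included 1.

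Of the helper list, Slamf6, a receptor of stem-like and helper T cells, stood at 78.7 treated and 18.5 PBS CPM (log2 ratio 2.09, 1.19 to 3.08), or at 2.71 without 1 PBS cell. Maf stood at 172 and 58.0 CPM (1.57, 1.04 to 2.12), Icos at 281 and 144 CPM (0.97, 0.60 to 1.34) and Rora at 273 and 148 CPM (0.89, 0.52 to 1.26). In regulatory members these 4 genes were at 244 and 36.1, 587 and 175, 770.5 and 265, and 519 and 379 CPM, treated and PBS. In CD8 members they were at 20.1 and 5.52, 0 and 14.7, 124 and 110.4, and 178 and 84.7 CPM. Maf had a UMI in 27.1% of treated members and 16.2% of PBS members but in 36.6% and 38.2% of the much deeper tumour-marker cells, so its share of cells is not read as expression.

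Among activation and interleukin 2 response genes 5 of 20 were higher and 0 lower (median 0.32), including the serine kinase Pim1 (0.69), the costimulatory receptor Tnfrsf4 (0.76) and the NF-kB inhibitor Nfkbia (0.62). Il2rb, the receptor chain shared by interleukins 2 and 15, was at 403 and 580 CPM (-0.53). Of 17 measured quiescence and memory genes 3 were higher and 3 lower. Il7r, the survival receptor of resting T cells, was at 142 and 85.7 CPM and S1pr1 at 65.5 and 33.0 CPM. Bcl2, which blocks cell death, was at 112 and 290.0 CPM (-1.37, -1.80 to -0.95), and the interferon-linked Ly6c2 at 133 and 216 CPM (-0.70). The inhibitory list had 1 higher and 3 lower of 11, with Pdcd1 at 46.8 and 145 CPM (-1.63, -2.32 to -0.99) and Ctla4 at 429 and 282 CPM (0.60, 0.33 to 0.88). Without the 1 cell of a library that held the most UMIs of the gene, 7 of the genes named here came under 1.5-fold: Pim1 (0.57), Tnfrsf4 (0.46), Nfkbia (0.52), Il7r (0.51), S1pr1 (0.47), Ly6c2 (-0.56) and Ctla4 (0.37).

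The medians of the mitosis and replication lists lay closer to 0 than that of the histones. G2 and mitosis genes had a median of -0.17 with 1 of 31 higher and 1 lower, and replication genes -0.24 with 0 higher and 2 of 24 lower. Histones had a median of -0.54 with 3 of 10 lower. Of 7 measured p53 targets 3 were lower and 0 higher, led by Cdkn1a at 54.3 and 153 CPM (-1.49, -2.13 to -0.90), with the death effector Bax at -0.86 and Ccng1 at -0.71 (-0.48 without 1 PBS cell). Type I interferon response genes had 2 of 14 lower (median -0.38), the nucleic acid sensor gene Ifi206 at -1.12 and its relative Ifi214 at -1.02. Respiratory chain (0 of 29) and nucleotide synthesis genes (0 of 12) had no member past 1.5-fold, with medians of -0.083 and -0.053.

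By the rule of highest and lowest ratios, 20 genes stood out, and several rested on a single cell. Ighm, the immunoglobulin mu chain, had 869 treated and 70 PBS UMIs, a ratio of 17.6, but 1 treated cell held 93.6% of the treated UMIs. That cell carried 813 Ighm and 357 Jchain UMIs among 19949 UMIs, with a T score of 40 and 33 cycling UMIs, and the doublet caller marked it. Without it the log2 ratio of Ighm was 0.24, against 4.14. Spp1, or osteopontin, had 5 and 96 UMIs, of which 1 PBS cell held 40.6%, and Selenbp1 40 and 137 UMIs, of which 1 cell held 42.5% in the treated and 48.2% in the PBS library, so that its log2 ratio of -1.27 was -0.35 without the PBS cell and -2.03 without the treated one. Without its top PBS cell Spp1 was at -3.02 in place of -3.76.

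The other high ratios rested less on a single cell than that of Ighm. Ccl3, a chemokine made by activated T cells and macrophages, stood at 299.6 and 73.8 CPM in 17 and 28 cells, 4.06-fold higher in the treated library (2.02, 1.57 to 2.49), and 1 cell held 26.9% of the treated UMIs. Cd74, the invariant chain of class II antigen presentation, was 2.72-fold higher (169 and 62.0 CPM), against 663 and 497 CPM in cells that are not T cells. Nfatc3, a calcium-dependent factor of T cell activation, was 2.42-fold higher, although Esrp2 lies over its last 500 bases on the opposite strand. Appl1 (2.37-fold), the phosphodiesterase Pde4b (2.16-fold), Ifitm1 (2.12-fold), the mRNA decay factor Zfp36 (2.02-fold) and Ripor2 (1.98-fold) followed, with Maf as given above. Ifitm1, like Ccl3, had a UMI in fewer treated than PBS members (13 and 17). In other T cells Ccl3 (102 treated and 280 PBS CPM), Ifitm1 (58.8 and 228 CPM) and Maf (84.7 and 113 CPM) went the other way. The rest were higher in treated other T cells too, from Pde4b (551 and 255 CPM) to Appl1 (108 and 104 CPM).

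The other low ratios included receptors of cytotoxic cells. Fcer1g, the signalling chain of Fc and NK receptors, stood at 39.3 treated and 188 PBS CPM (ratio 0.209), and at 628 and 345 CPM in cells that are not T cells. AA467197 had a ratio of 0.242, Pdcd1 of 0.323, Coro2a of 0.343, Klre1 of 0.354, Cdkn1a of 0.355, the galectin Lgals3 of 0.385 and Bcl2 of 0.387. Gm16731 lies over the last 500 bases of Coro2a on the opposite strand. The ratios of all 10 were below 1 in CD8 members alone too, but that of Selenbp1 turned (log2 1.89) without 1 PBS cell. All 10 were also lower in treated than in PBS other T cells. There Pdcd1 stood at 29.0 and 161 CPM, Coro2a at 50.8 and 209, Klre1 at 69.5 and 154 and Bcl2 at 205 and 400. Fcer1g (190 and 194 CPM), Spp1 (12.1 and 14.9 CPM) and Cdkn1a (41.5 and 50.8 CPM) differed less there. For most, the lower level was thus not particular to cycling T cells.

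**Figure D5:**
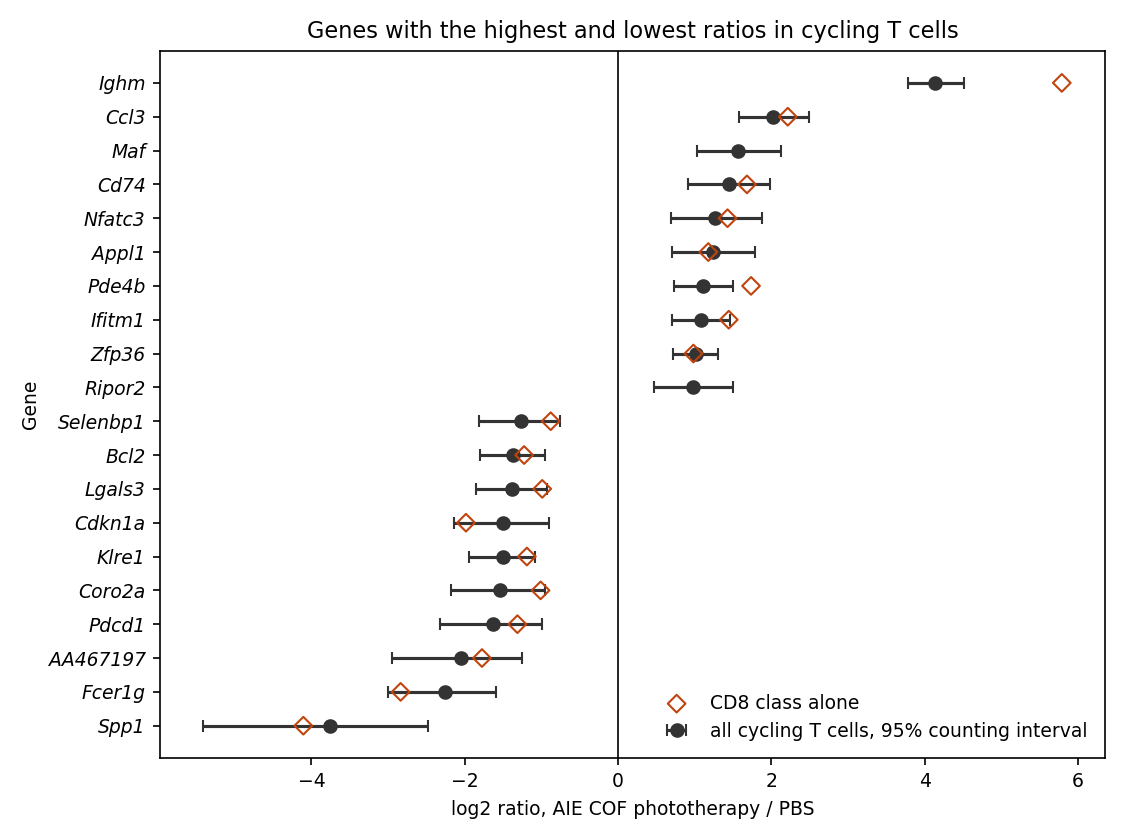
log2 ratio of the AIE COF phototherapy to the PBS library for the 10 highest and 10 lowest named genes in all cycling T cells (dots, bars are 95% counting intervals) and in CD8 cells alone (diamonds, where measured). Ighm, at 4.14, rests on 1 cell, and Pdcd1 stands at -1.63 in all members and at -1.31 in CD8 members.

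Within CD8 members alone, 10 of 26 mitotic and 4 of 15 cytotoxicity genes were lower in the treated library. The doublet caller marked 8 of 40 treated and 3 of 66 PBS CD8 members, among them the treated cell rich in Ighm. These cells were kept here, and their part in the CD8 values was not tested. Of 2883 genes with at least 50 UMIs, 6.69% were at least 1.5-fold higher and 11.6% at least 1.5-fold lower, with a median of -0.048. One cytotoxicity gene, Ifng, was higher, and the list's median was -0.33 against -0.52 in all members. Gzmb stood at 456 treated and 976 PBS CPM (-1.10, -1.38 to -0.82), Ccl5 at 386 and 809.9 CPM (-1.07, -1.38 to -0.77) and Gzmc at 16.8 and 127 CPM (-2.92, -4.59 to -1.63). Without the treated cell that held the most UMIs, Gzmb was at -1.92 and Gzmc at -3.60. Ifng stood at 382 and 214 CPM (0.84, 0.45 to 1.23). Nkg7 (-0.16, -0.33 to 0.00) and Klrd1 (-0.16, -0.37 to 0.06) had intervals that included 0, against log2 ratios of -0.51 and -0.52 over all members.

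No G2 and mitosis gene was 1.5-fold higher in treated CD8 members, and the list's median was -0.50. Aspm, a protein of the spindle poles, stood at 90.5 and 188 CPM (-1.05, -1.72 to -0.43), the checkpoint kinase Bub1 at 77.1 and 144 CPM (-0.90, -1.64 to -0.21) and Cdc20, which starts anaphase, at 53.7 and 105 CPM (-0.97, -1.87 to -0.15). Elovl1 lies over the last 500 bases of Cdc20 on the opposite strand, so the Cdc20 value is less sure. Cdk1, the mitotic kinase, stood at 195 and 173 CPM (0.17, -0.33 to 0.66). Replication genes had a median of -0.080, with 2 of 18 lower. Pdcd1 stood at 77.1 and 191 CPM (-1.31, -2.03 to -0.65), Bcl2 at 144 and 337 CPM and Cdkn1a at 50.3 and 199 CPM (-1.98, -2.87 to -1.20), and 3 of 5 measured p53 targets were lower.

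Compared with other CD8 T cells of the same library, cycling CD8 members had a cytotoxicity median above 0 in the treated and below 0 in the PBS library. The rule used this contrast, so nothing is read from it. Of all genes with at least 50 UMIs, 24.1% were at least 1.5-fold higher and 21.2% lower in cycling CD8 cells of the treated library, and 17.2% and 13% in the PBS library. Cytotoxicity genes had a median of 0.59 in the treated library, with 8 of 15 at least 1.5-fold higher and 1 lower, and of -0.26 in the PBS library, with 1 of 16 higher and 5 lower. Gzmb stood at 456 CPM in cycling and 296 CPM in other CD8 cells of the treated library, but 1 cycling cell held 45.6% of the cycling UMIs, and without it the level was 258 CPM and the log2 ratio -0.20 in place of 0.63. In the PBS library Gzmb stood at 976 and 1026 CPM. No direction is therefore read from the treated value. Prf1 stood at 33.5 and 31.9 CPM in the treated and at 53.4 and 111 CPM in the PBS library. Whether the libraries differ in this was not tested.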

How the data were processed

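Single cells of 2 suspensions were barcoded with the MobiCube 3' kit v1.0 and sequenced on an Illumina instrument, per the labels' protocols. The submitters' processing notes name STAR and mm10, with no version. The deposited matrices hold the authors' raw UMI counts of 32285 genes per barcode, and further steps are not stated in the sources at hand. The members, classes and gene lists were chosen with earlier results of these data known.

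Counts were summed over the cells of a class and library and given as CPM, and genes with at least 50 UMIs over both sides were compared. A gene was called at 1.5-fold. Intervals are exact at 95% (Clopper-Pearson for shares, conditional binomial for ratios) and cover counting error only. Named genes were the rule and class genes, up to 5 members of a list with the most UMIs and 4 with the largest ratios, and the 10 highest and 10 lowest ratios between libraries. Those needed at least 100 UMIs, a UMI in 10% of and 10 members of the higher library, and a level in its cells that are not T cells of at most 5 times the members' level. Doublets were scored with Scrublet at 0.8% per 1000 barcodes and removed in an alternative only. Of 32285 gene identifiers 32235 were placed with GENCODE M21. Scripts were tested on simulated data and ran in Python 3.11.15 with numpy 2.4.6, scipy 1.17.1, pandas 2.3.3, scanpy 1.11.5 and matplotlib 3.10.9. Some genes are not reported here.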

Additional observations from a re-analysis of the deposited data

Results flagged for a closer look

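Summed over a list, 5 groups of genes went opposite ways between the libraries in cycling CD8 and cycling regulatory cells. Both counting intervals were off 0, but they leave out the spread between cells, and none of these differences was tested. The log2 ratio of treated to PBS was -0.51 in CD8 and 0.58 in regulatory cells for histones, and -0.40 and 0.76 for G2 and mitosis genes. It was -0.18 and 0.58 for cell cycle inhibitors and G0 genes, -0.13 and 0.38 for the T cell receptor complex, and -0.43 and 0.61 for type I interferon response genes. Regulatory members had median depths of 4333.5 treated and 9643 PBS UMIs, and the part of depth was not tested.

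By the same criterion, another 4 lists went opposite ways between the libraries when cycling T cells were set against other T cells, again untested. The log2 ratio of cycling to other T cells was 0.16 in the treated and -0.36 in the PBS library for cytotoxicity genes, and 0.088 and -0.35 for inhibitory receptors. It was 0.50 and -0.45 for regulatory T cell genes, and 0.17 and -0.69 for helper T cell genes. The rule that chose the cells used this contrast.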

How the results depend on the processing

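No paired analysis was possible because each group has 1 library. Of 64 values of shares and gene counts under alternatives, 49 stayed within the spread set for them and 15 moved. For the 4 shares, the values are log2 ratios of treated to PBS. The share among kept cells (-0.19) was -0.78 without members holding 2 UMIs of other-cell markers, which left 31 and 27 cells, and -1.13 as a share of T cells. The share among T cells (-1.13) was -0.62 with a T score of at least 12 and -0.27 thinned to 2000 UMIs. Thinned to 1000 UMIs, the CD8 share (-0.68) was -1.42 and the regulatory share (0.50) was 1.70. Where the interval included 0, the sign turned in 2 cases, to 0.02 for the share among kept cells at 2000 UMIs and to -0.28 for the regulatory share by Foxp3 alone. Intervals of 2 such results came to exclude 0: the share among kept cells with a T score of at least 12 (-0.50), and the regulatory share at 2000 UMIs (1.37) or with no C1q UMI (1.23). The CD8 share ranged from -1.42 to -0.36, and its interval included 0 with at least 5 cycling UMIs, a T score of at least 12, 2000 UMIs or no other-cell markers.

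Genes at least 1.5-fold higher and lower numbered 301 and 341. They numbered 102 and 100 at 2000 UMIs, 760 and 854 from 20 UMIs, 108 and 121 from 100 UMIs, and 102 and 122 without other-cell markers, where fewer or more genes were compared. In CD8 members alone 193 were higher. The cytotoxicity median ranged from -0.72 to -0.33. The quiescence median, 0.30, was -0.52 without other-cell markers, and the cause was not tested. Leaving out the cell with the most UMIs of a gene was added after the data were seen. It turned Gzmb in treated cycling against other CD8 cells from 0.63 to -0.20.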
